A study of Homo sapiens with 4 samples.

Results

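Iron handling genes were examined in a human cell line with and without knockdown of FYB1, which encodes an adaptor protein of T cell receptor signalling. The set was given as 9 gene symbols around TFRC, the transferrin receptor, matched by Ensembl identifier in GENCODE 29 to the deposited table of 28274 genes. 8 of the 9 were found, namely TFRC, FTH1, FTL, SLC11A2, SLC40A1, ACO1, IREB2 and STEAP3, and HMOX1 was not analysed here. The members were chosen by their FPKM values in the 4 libraries compared here, with TFRC already known to be lower in the knockdown libraries. Values of the members in this contrast are therefore a description, and no p-value is given for them.

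The cells are the line that the labels spell J-gammal. The controls, 2 libraries, are labelled as receiving no treatment, with genotype none and NC in the title. The other 2 libraries are labelled FYB1 knockdown, with sh-FYB1 in the title. No source used here gives the construct of the knockdown libraries or says whether the controls carried one, so an effect of a construct cannot be told apart from one of FYB1. Separate cultures are not stated for the libraries within a group, and the spread that p-values rest on may therefore be technical.

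Values are FPKM, fragments or reads per kilobase of exon relative to a library total, and can be compared between genes as levels per length. Each value was also turned back into whole reads. The libraries held 16693113 to 20251864 recovered reads. With the totals the authors scaled by, 1 FPKM over 1 kb of exon stands for 16.6 to 20.5 reads. FYB1, the targeted gene, stood at 17.6 and 20.1 FPKM in the controls and at 6.18 and 4.53 FPKM in the knockdown libraries. All 8 T cell markers had values, from 1.78 FPKM for CD2 in knockdown library 1 up to 478 FPKM for CD3D in control 1. CD3D, a chain of the T cell receptor complex, was the 1 of these 8 called by limma-voom, a linear model of recovered reads. It was lower in the knockdown libraries (adjusted p = 0.0200), as were 5.80% of all tested genes by that test. Limma-trend, a test on log2(FPKM + 1), called 0 of the 8. By that fit 6 of the 8 had a lower mean and 2 a higher one, beside 54.3% lower over all genes. The 8 markers summed to 1450 and 1346 FPKM in the controls and to 1073 and 1315 FPKM in the knockdown libraries. Of 8 erythroid markers 4 had a value, with a sum of 1.21 to 1.88 FPKM in each library, most of it from KLF1. The 8 macrophage and monocyte markers summed to 0.231 to 0.468 FPKM, with CD163 and MSR1 at or near 0.

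Cells take up iron mainly as transferrin bound to its receptor TFRC, which is internalized through clathrin-coated pits. In the endosome a STEAP reductase converts ferric to ferrous iron, and the metal transporter SLC11A2 (DMT1) carries it into the cytosol. Ferritin, a cage of FTH1 and FTL chains, stores the surplus, and SLC40A1 (ferroportin) exports it. The iron regulatory proteins ACO1 (IRP1) and IREB2 (IRP2) bind hairpins called iron-responsive elements when iron is scarce. Binding in a 3′ UTR, as in TFRC, protects the mRNA from decay, and binding in a 5′ UTR, as in the ferritin chains and ferroportin, blocks translation. Proliferating lymphoid cells depend on TFRC for the iron of ribonucleotide reductase and of mitochondrial respiration.

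The hairpins that tie these mRNAs together are shown first, since they set the 3′ group, TFRC and SLC11A2, apart from the 5′ group. The motif searched in the annotated UTRs on the transcript strand was a C, 5 bases of any kind and the loop CAGTGN, in which the 5 bases before the loop had to pair with the 5 bases after the loop, G with T allowed. Each site is printed as transcript DNA from GENCODE 29 (hg38), 5′ to 3′, 29 bases long, with the unpaired C and the 6 bases of the loop in capitals.
TFRC, 3′ UTR, chr3:196050979-196051007, minus strand: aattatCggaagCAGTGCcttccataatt
TFRC, 3′ UTR, chr3:196050575-196050603, minus strand: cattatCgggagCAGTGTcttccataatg
TFRC, 3′ UTR, chr3:196050510-196050538, minus strand: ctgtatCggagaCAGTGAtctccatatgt
TFRC, 3′ UTR, chr3:196050463-196050491, minus strand: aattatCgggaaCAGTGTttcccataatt
SLC11A2, 3′ UTR, chr12:50988269-50988297, minus strand: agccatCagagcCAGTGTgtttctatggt
FTH1, 5′ UTR, chr11:61967574-61967602, minus strand: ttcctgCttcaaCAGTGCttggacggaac
FTL, 5′ UTR, chr19:48965335-48965363, plus strand: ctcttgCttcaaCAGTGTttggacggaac
SLC40A1, 5′ UTR, chr2:189580661-189580689, minus strand: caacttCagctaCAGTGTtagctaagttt

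With all 5 pairs required, 4 of the members matched. TFRC had 4 sites in its 3′ UTR, and FTH1, FTL and SLC40A1 had 1 each in the 5′ UTR. Such a match was found in the 5′ UTR of 0.188% and in the 3′ UTR of 0.693% of coding genes with such a UTR in GENCODE 29. The site of SLC11A2 had 4 of the 5 pairs. That looser rule also matched the 3′ UTRs of ACO1 and IREB2, and it matched 4.76% of 3′ UTRs in all, so those matches are common by the letters alone. A match describes the letters and not binding by ACO1 or IREB2.

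In the levels per length the storage proteins led. In both controls the order was FTL, FTH1, TFRC, SLC40A1, ACO1, IREB2 and SLC11A2, with no overlap between neighbours. In the knockdown libraries the ranges of IREB2 and ACO1 overlapped, at 8.45 to 9.53 and 8.18 to 8.82 FPKM, and the other neighbours stayed apart.

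**Figure D1:**
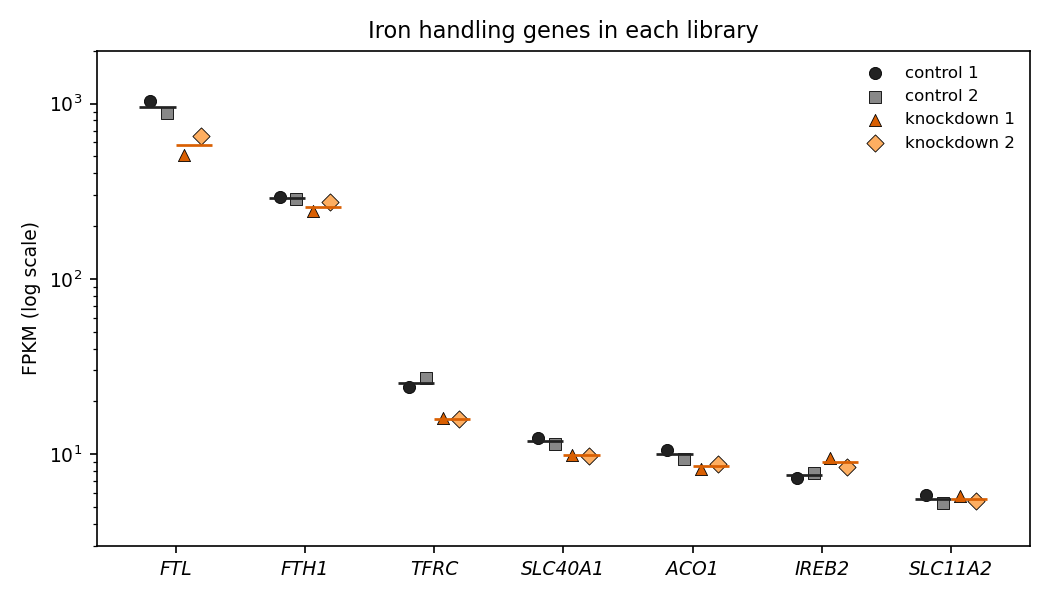
FPKM on a log axis of 7 iron handling genes in the 2 controls and 2 FYB1 knockdown libraries, with short lines at the group means. TFRC was at 24.0 and 27.1 FPKM in the controls and at 16.1 and 15.8 FPKM in the knockdown libraries, and STEAP3 is left out because 2 of its values are 0.

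TFRC, the receptor that brings in transferrin, was lower in both knockdown libraries than in both controls. It stood at 24.0 FPKM in control 1, 27.1 in control 2, 16.1 in knockdown library 1 and 15.8 in knockdown library 2, from 3152, 3587, 2338 and 2554 reads. The groups did not overlap, the knockdown libraries lay close together, and the gap to control 1, the lower control, was larger than the gap between the controls. The mean with the knockdown was 0.624 of that in the controls. On the log2(FPKM + 1) scale, which understates changes of low genes, the difference of knockdown minus control was -0.65 ± 0.11 (SE, n = 2 libraries in each group). Set against the control mean, the knockdown libraries were at -0.63 and -0.66. On recovered reads the difference was -0.68 ± 0.12. In bulk RNA, fewer cells with the transcript and less of it in each cell cannot be told apart. The gene lies on chromosome 3 from 196027183 to 196082189 on the minus strand (hg38, GENCODE 29), with 7.887 kb of merged exon.

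SLC11A2, the metal transporter that acts downstream of the receptor, stood at 5.83 and 5.27 FPKM in the controls, and at 5.73 and 5.36 FPKM with the knockdown. The groups overlapped, and the difference was 0.00 ± 0.10 on the log2(FPKM + 1) scale, whose sign turned with the scaling (0.12 with reads summed as the library total, -0.11 after a correction for exon length and GC content). Of the reductases, STEAP3 had 0 and 4 reads in the controls and 3 and 0 reads in the knockdown libraries. A difference in STEAP3 was not detectable at this depth. Its relatives STEAP2 and STEAP4 reached at most 0.0224 and 0.0193 FPKM in any library, and STEAP1 at 1.03 to 1.35 FPKM.

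The ferritin chains differed from each other. FTL, the light chain, stood at 1027 FPKM in control 1, 880 in control 2, 507 in knockdown library 1 and 650 in knockdown library 2. Both knockdown libraries lay below both controls, and knockdown library 1 was the lowest. The mean with the knockdown was 0.607 of that in the controls, and the difference was -0.73 ± 0.22 on the log2(FPKM + 1) scale and -0.73 ± 0.16 on recovered reads. Set against the control mean, knockdown library 1 was at -0.91 and knockdown library 2 at -0.55, while control 1 minus control 2 was 0.22.

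FTH1, the heavy chain with the ferroxidase activity, stood at 294 and 286 FPKM in the controls and at 243 and 273 FPKM in the knockdown libraries. The groups did not overlap in FPKM, and the difference of -0.17 ± 0.16 was about the size of its error. It was 0.22 under quantile normalization, and 0.03 with length and GC content corrected for, so its direction was not stable. The ratio of FTL to FTH1, both in FPKM, was 3.49 and 3.08 for the controls, against 2.08 and 2.38 with the knockdown. The ratio was thus lower in both knockdown libraries than in either control, as the light chain differed more than the heavy chain in each of them.

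The ferritin genes have many processed copies in the genome, and no source used here says how reads that fit several copies were counted. The table holds 12 pseudogenes named FTH1P and 2 named FTLP. They had 115 to 184 and 1 to 11 reads in each library, beside 9113 to 11345 for FTH1 and 8209 to 15015 for FTL. FTH1P7 and FTH1P2 had the highest means, and each overlapped between groups, at 4.21 to 8.70 and 3.06 to 6.28 FPKM. Exons of BEST1, on the other strand, cover 62.4% of the exon bases of FTH1. BEST1 itself averaged 0.208 FPKM, and whether reads were counted by strand is not known here.

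SLC40A1, the exporter, stood at 12.3 and 11.4 FPKM in the controls and at 9.92 and 9.79 FPKM in the knockdown libraries. The groups did not overlap, and the mean with the knockdown was 0.833 of that in the controls (difference -0.24 ± 0.09). Under each other scaling the difference stayed negative, between -0.18 and -0.11.

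The iron regulatory proteins lay on opposite sides of their controls. ACO1, which doubles as cytosolic aconitase when it holds an iron-sulfur cluster, stood at 10.6 and 9.37 FPKM in the controls and at 8.18 and 8.82 FPKM in the knockdown libraries (difference -0.21 ± 0.10). IREB2, which is degraded when iron is plentiful, stood at 7.33 and 7.82 FPKM in the controls and at 9.53 and 8.45 FPKM in the knockdown libraries (difference 0.22 ± 0.10). Neither gene overlapped between groups. With reads summed as the library total ACO1 moved to -0.08, and after the length and GC correction IREB2 moved to 0.06.

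**Figure D2:**
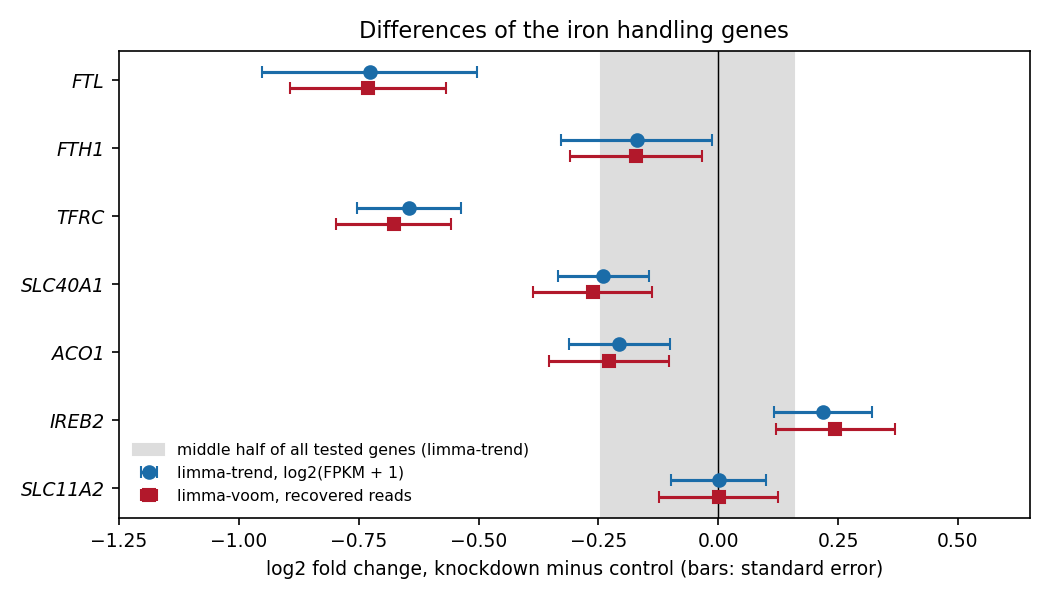
Log2 fold change of knockdown minus control with its standard error for 7 iron handling genes, by limma-trend on log2(FPKM + 1) and by limma-voom on recovered reads, over a grey band that runs from the lower to the upper quartile of all tested genes. By limma-trend, which also set the band, TFRC (-0.65) and FTL (-0.73) lie left of it and IREB2 (0.22) lies right of it. The other members lie inside the band by limma-trend, and the limma-voom point of SLC40A1 (-0.26) lies left of it.

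Across the 7 members that passed the minimum mean of 1 FPKM, 5 were lower in both knockdown libraries than in both controls, 1 was higher in both and 1 overlapped. Of all 13172 genes tested, 34.6% were lower and 26.0% higher without overlap. Limma-trend, the test on log2(FPKM + 1) with p-values adjusted by the Benjamini-Hochberg method over all genes, called 0 of the 7 members at a threshold of 0.05, where 0.205% of genes were called, 0.0683% higher and 0.137% lower. Before adjustment, limma-trend gave 3 of the 7 a p under 0.05, as it did for 23.4% of all genes. On recovered reads, limma-voom placed 2 of the 7, TFRC and FTL, among its genes called lower, where the share of all genes was 5.80%. Nothing is read from these counts, because the members were chosen with the contrast known. Both of the limma-voom calls ended without control 1, without control 2 and without knockdown library 1, when the fold changes of TFRC were -0.76, -0.59 and -0.69 and those of FTL -0.62, -0.84 and -0.55.

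The zero of these values depends on the library totals. For these the FPKM use totals of the authors that differ from the sum of recovered reads. Taken as relative factors, the authors' totals equalled factors from the median of gene ratios in every library. The factors ran from 0.924 for control 1 up to 1.14 for knockdown library 2. The FPKM thus already carry such a scaling, and the sum of reads takes it out again. The median of all genes was -0.03 with the authors' totals and 0.08 with the sum of reads. Measured from that median, TFRC was at -0.61 and -0.59, FTL at -0.69 and -0.67, SLC40A1 at -0.21 and -0.19, ACO1 at -0.17 and -0.16, and IREB2 at 0.25 and 0.26. FTH1 was at -0.14 and -0.11, and SLC11A2 at 0.03 and 0.04. A change of totals shifts all genes nearly alike, so these pairs had to be close. Scalings that act gene by gene moved several members more, but not all. Measured from the median of all genes, FTL was at -0.33 and FTH1 at 0.22 under quantile normalization, and IREB2 was at 0.05 with length and GC content corrected for. SLC40A1 was at -0.18 under both of these scalings, and ACO1 at -0.17 under quantile normalization.

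Exon length moved with the fold change, and the members span most of its range. Over the 10570 tested coding genes the Spearman correlation of log2 fold change with merged exon length was 0.45, given as a description because all genes share the same 4 libraries. With GC content the correlation was -0.355 over 10564 coding genes, so the bins by length below do not separate length from GC content. In the 1057 coding genes with 6.879 to 8.189 kb of exon, TFRC and ACO1 among them, the median was 0.05 and the quartiles ran from -0.11 to 0.17. TFRC, at -0.65, was far below that band, and ACO1, at -0.21, just below it. In the 1057 shortest coding genes, of 0.207 to 2.141 kb and with both ferritin genes among them, the median was -0.31 and the quartiles ran from -0.51 to -0.09. FTL (0.878 kb) lay below that band, and FTH1 (2.03 kb) lay inside it. In the 1057 longest coding genes, of 10.38 to 44.677 kb, the median was 0.15 and the quartiles ran from 0.01 to 0.29. IREB2 (10.806 kb), at 0.22, lay inside that band. After a smooth trend on length and GC content was removed, TFRC was at -0.75 and FTL at -0.59.

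**Figure D3:**
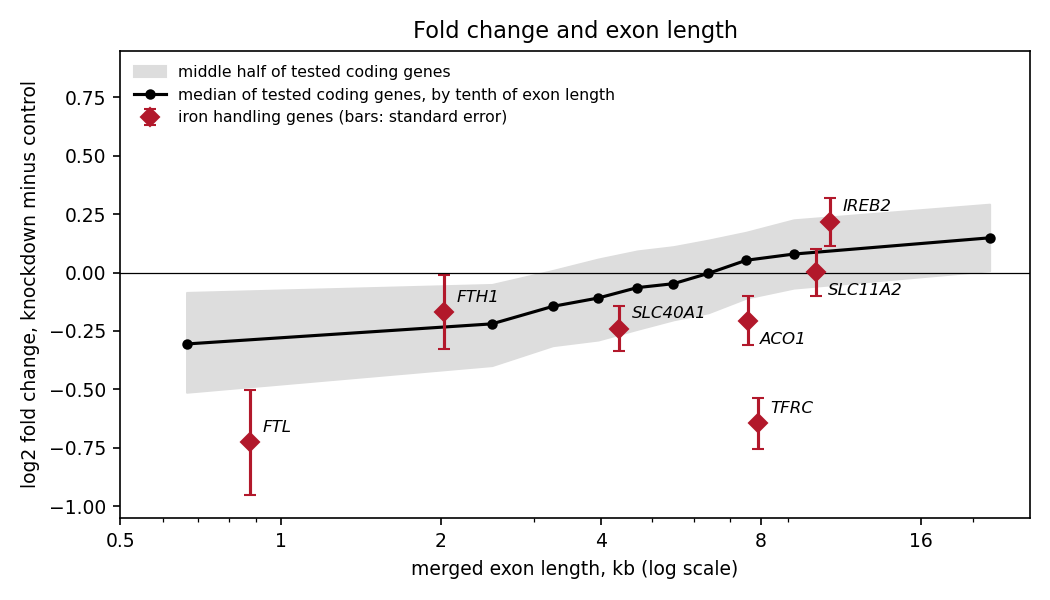
Log2 fold change of knockdown minus control by limma-trend against merged exon length on a log axis, with the median and quartiles of tested coding genes in each of 10 length bins and the iron handling genes with their standard errors. TFRC lies at -0.65 where coding genes of like length have a median of 0.05, and FTL at -0.73 where that median is -0.31.

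The genes whose values ran most like those of TFRC were found among 7195 other coding genes averaging 5 FPKM or more, by the Euclidean distance of log2(FPKM + 1) values centred over the 4 libraries. INSIG2, which retains the sterol sensor SCAP in the endoplasmic reticulum, was nearest at a distance of 0.0142. It stood at 22.1 and 25.3 FPKM in the controls and at 14.9 and 14.7 FPKM in the knockdown libraries. CA8, a carbonic anhydrase relative without catalytic activity, and TM9SF4, a membrane protein with several transmembrane passes, followed at 0.106 and 0.108. With only 4 libraries many genes can run alike, and no link between these genes is implied.

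Beyond the members, 121 other genes in 11 lists cover the steps of iron handling, and 101 of them were tested. The lists too were chosen with earlier results of these data known, so their counts, medians and p-values are a description. Limma-trend called 0 of the 101, while 25 (24.8%) had a p under 0.05 before adjustment, beside 23.4% of all genes. Limma-voom on recovered reads called 14, of which 11 fell and 3 rose. Over all genes limma-voom called 7.74%, with 5.80% lower and 1.94% higher. The 101 genes had a median log2 fold change of -0.11 by limma-trend, beside -0.03 for all genes, and 70 of them had a lower mean. Set against the median of all genes under the same scaling, the 101 genes lay at -0.08, at -0.06 with the sum of reads, at -0.04 with length and GC content corrected for and at -0.01 under quantile normalization. The genes with a lower mean made up 69.3% of the 101 beside 54.3% of all genes, and 47.5% beside 39.2% with the sum of reads. The shares were 59.4% beside 49.3% with length and GC content corrected for, and 52.5% beside 49.0% under quantile normalization. With the sum of reads the calls of limma-voom over all genes were also split otherwise, at 254 higher and 207 lower in place of 255 and 764.

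Among 6 tested genes of transferrin and metal uptake, limma-voom called 2, both lower. SLC39A14 (ZIP14), a zinc transporter that also imports iron not bound to transferrin, stood at 8.72 and 8.70 FPKM in the controls and at 4.72 and 5.09 FPKM in the knockdown libraries. Its difference by limma-voom was -0.83 ± 0.13 with an adjusted p of 0.00655, and by limma-trend the adjusted p was 0.0734. SLC22A17, a receptor for the siderophore carrier lipocalin 2, stood at 4.11 and 3.59 FPKM in the controls and at 1.85 and 1.64 FPKM in the knockdown libraries (limma-voom -1.14 ± 0.18, adjusted p = 0.00802). The median of the 6 genes was -0.15 by limma-trend, beside -0.03 for all genes. Only 3 of the 6 had a lower mean (50% beside 54.3% of all genes). The other 3, STEAP1, SLC39A8 and CYBRD1, had a higher mean and passed neither test. SLC39A8 was at 20.5 and 21.8 FPKM in the controls and at 22.1 and 22.6 FPKM in the knockdown libraries. TFR2, the second transferrin receptor, stood at 1.61 and 1.55 FPKM in the controls and at 0.942 and 1.09 FPKM in the knockdown libraries, and did not pass either test. It is named here after its values were seen, as the paralog of TFRC, and so are STEAP1, STEAP2 and STEAP4 above.

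The receptor's route through the endosome was covered by 16 tested genes, of which 11 had lower means (68.8% beside 54.3% of all genes). The list median was -0.10, but 0.04 under quantile normalization, where the median of all genes was 0.01 and 7 were lower (43.8% beside 49.0%). With length and GC content corrected for it was -0.04, with 11 lower (68.8% beside 49.3%). Limma-voom called 1, AP2M1, the subunit of the clathrin adaptor that reads the sorting signal in the tail of TFRC. It fell from 88.0 and 84.4 FPKM to 50.6 and 66.3 FPKM (-0.58 ± 0.15, adjusted p = 0.0417). Of 5 tested genes of ferritin storage and release besides the chains themselves, HERC2, a ubiquitin ligase that targets the ferritin receptor NCOA4, rose by limma-voom from 2.52 and 2.69 FPKM to 4.33 and 3.47 FPKM (adjusted p = 0.0339). The median of these 5 genes was -0.08, but 0.13 under quantile normalization and -0.09 with length and GC content corrected for. None of the genes of iron export and hepcidin other than SLC40A1 reached a mean of 1 FPKM, and together the 6 with values summed to 0.762 to 1.11 FPKM in each library.

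The 6 tested partners in the turnover of the iron regulatory proteins held 0 calls by either test, and by limma-trend 0 had a p under 0.05 before adjustment (median -0.12, which is -0.09 from the median of all genes and -0.01 from it under quantile normalization). The most abundant of them were CIAO1, a carrier of cytosolic iron-sulfur cluster delivery, at 29.6 and 27.5 FPKM in the controls and 23.1 and 26.2 FPKM in the knockdown libraries, and RBX1, a cullin ring protein, at 24.5, 23.1, 15.2 and 21.0 FPKM in the same order. In the list of factors known to bind or cleave the TFRC mRNA, calls went both ways among 6 tested genes besides ACO1 and IREB2 (median 0.30, and 0.12 with length and GC content corrected for). ZFP36L1, a protein that binds AU-rich elements and promotes mRNA decay, rose by limma-voom from 12.8 and 12.6 FPKM to 21.1 and 20.0 FPKM (0.69 ± 0.12, adjusted p = 0.0121). Its paralog ZFP36L2 fell from 70.8 and 79.9 FPKM to 56.8 and 50.8 FPKM (-0.48 ± 0.13, adjusted p = 0.0442 by limma-voom). Among 4 tested other mRNAs known for an iron-responsive element (median 0.13, but 0.07 under quantile normalization and 0.01 with length and GC content corrected for), EPAS1, the hypoxia factor HIF-2 alpha, rose from 1.88 and 2.20 FPKM to 3.19 and 2.96 FPKM (adjusted p = 0.0437 by limma-voom).

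Haem is the other large pool of cellular iron. Of 7 tested genes of haem breakdown and transport, 2 fell by limma-voom. BLVRB, a biliverdin reductase, went from 33.2 and 28.8 FPKM to 13.5 and 22.4 FPKM (adjusted p = 0.0339), and PGRMC1, a haem-binding membrane protein, from 31.8 and 28.03 FPKM to 17.2 and 20.1 FPKM (adjusted p = 0.0213). The list median was -0.16 with 6 of 7 genes lower, but -0.02 with 4 lower both under quantile normalization and with length and GC content corrected for. Of 14 tested genes of the NRF2 and BACH1 pathway, which controls ferritin and haem oxygenase transcription, MAFK, a small MAF partner of both factors, fell from 28.5 FPKM in each control to 15.8 and 20.8 FPKM (adjusted p = 0.0277 by limma-voom). PRDX1, a peroxiredoxin, fell from 128.5 and 119.9 FPKM to 82.8 and 96.8 FPKM (adjusted p = 0.0459 by limma-voom). The median of this list was -0.06, and 0.09 under quantile normalization.

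Haem synthesis with mitochondrial iron import had 13 of 14 tested genes with a lower mean (92.9% beside 54.3% of all genes). The list median was -0.19, which is -0.16 from the median of all genes. With the sum of reads it was -0.15 from it, which had to be close, and 8 were lower (57.1% beside 39.2%). Under quantile normalization it was -0.11 from it, with 9 lower (64.3% beside 49.0%). With length and GC content corrected for it was -0.12 from it, with 8 lower (57.1% beside 49.3%). FECH, the ferrochelatase that inserts iron into protoporphyrin, fell by limma-voom from 21.8 and 20.9 FPKM to 15.4 and 15.9 FPKM (-0.45 ± 0.12, adjusted p = 0.0433). Iron-sulfur cluster assembly had 19 of 23 tested genes with a lower mean (82.6% beside 54.3% of all genes). The list median was -0.18, which is -0.15 from the median of all genes. With the sum of reads it was again -0.15 from it, which had to be close, and 14 were lower (60.9% beside 39.2%). Under quantile normalization it was -0.11 from it, with 17 lower (73.9% beside 49.0%). With length and GC content corrected for it was -0.14 from it, with 16 lower (69.6% beside 49.3%). CIAO2B, which hands clusters to cytosolic and nuclear proteins, fell by limma-voom from 133.8 and 119.3 FPKM to 61.1 and 90.5 FPKM (-0.76 ± 0.17, adjusted p = 0.0279). LYRM4, a partner of the cysteine desulfurase NFS1, fell from 3.03 and 2.77 FPKM to 1.59 and 2.20 FPKM (adjusted p = 0.0487 by limma-voom). Of the 11 called genes that fell, 4 belong to the shortest length bin (CIAO2B, PRDX1, BLVRB and PGRMC1). In all, 9 of the 11 belong to bins whose coding genes had a median below 0. The other 2, SLC39A14 (6.942 kb) and LYRM4 (9.443 kb), belong to bins with a median above 0. Of the 3 that rose, 1 belongs to a bin below 0 and 2 to bins above 0. The 10 bins hold nearly equal numbers of coding genes (1055 to 1059), and bins 1 to 7 have a median below 0. Nothing about length is read from these counts.

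**Figure D4:**
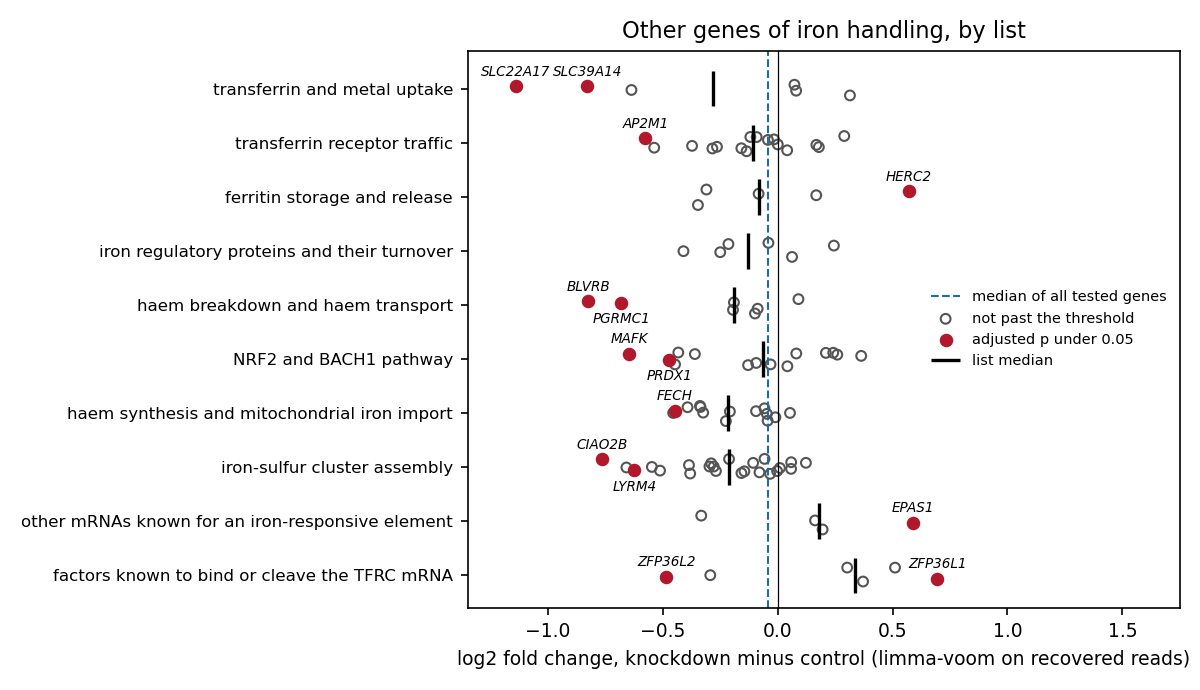
Log2 fold change of knockdown minus control by limma-voom on recovered reads for the 101 tested genes of the iron lists other than the members, with list medians as black bars, the median of all tested genes as a dashed line, and filled points for the 14 genes past the threshold. SLC22A17 (-1.14) and SLC39A14 (-0.83) lie farthest to the left, and ZFP36L1 (0.69) farthest to the right.

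Many of these 14 calls, which come from limma-voom, were lost with a library left out. All 14 genes kept their direction, which had to hold because none of them overlapped between groups. Nothing is read from it. Calls over all genes became fewer too, from 1019 to 136 without control 1, to 496 without control 2 and to 102 without knockdown library 1. The fold changes of the 14 stayed within 1.5 times of their values with all 4 libraries, except those of BLVRB, CIAO2B, LYRM4 and AP2M1, which shrank to -0.46, -0.48, -0.40 and -0.38 without knockdown library 1. Without control 1, SLC22A17 and SLC39A14 were still called, and the adjusted p of the other 12 lay between 0.101 and 0.487. Without control 2, BLVRB, PGRMC1 and CIAO2B were called as well, and the others lay between 0.0617 and 0.374. Without knockdown library 1, SLC39A14 and ZFP36L1 were called, and the others lay between 0.0581 and 0.163. Without knockdown library 2 all 14 were called. SLC39A14 alone was thus called by limma-voom in each of these 4 fits. With reads summed as the library total SLC22A17, SLC39A14, HERC2 and ZFP36L1 were called, and the others lay between 0.050006 and 0.118.

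The log2 fold change of TFRC had a narrower range over the alternatives than those of the ferritin chains and of IREB2 (0.06 to 0.38). The ranges of SLC40A1 (-0.32 to -0.11), ACO1 (-0.32 to -0.08) and SLC11A2 (-0.11 to 0.13) were narrower than that of TFRC. Counted by shifts of at least the SD within its groups, TFRC moved in 6 alternatives, FTH1 in 4 and FTL in 1. Those that add a block to limma-trend or change the filter cannot alter a fold change. Over all 20 of them the log2 fold change of TFRC lay between -0.76 and -0.49, that of FTL between -0.91 and -0.32, and that of FTH1 between -0.25 and 0.22.

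**Figure D5:**
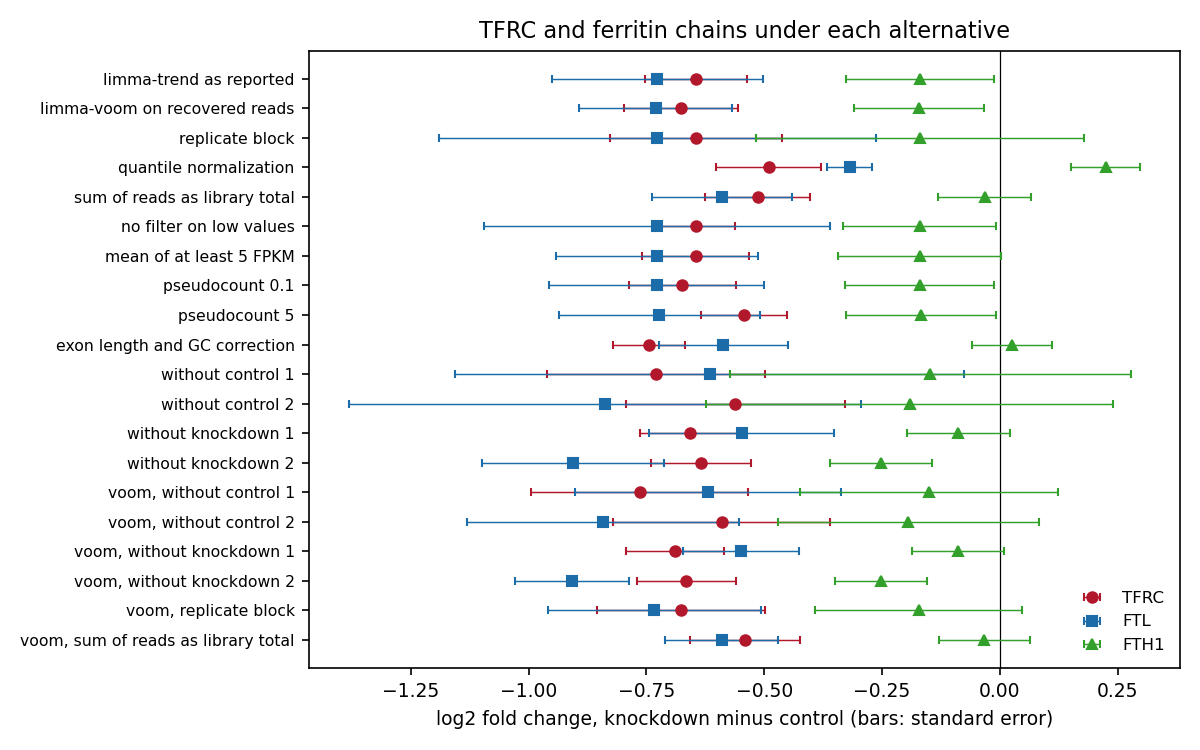
Log2 fold change of knockdown minus control with its standard error for TFRC, FTL and FTH1 under the fit as reported and 19 alternatives. TFRC and FTL are below 0 in every row shown, between -0.76 and -0.49 and between -0.91 and -0.32, while FTH1 crosses 0 and reaches 0.22 under quantile normalization.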

How the data were processed

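RNA from 4 libraries was sequenced after Trizol isolation and TruSeq preparation, per the labels' protocols. HISAT2 2.0.5 and the hg38 build are named, per the submitters' processing notes. The counting program, the annotation and whether strand was used were not given in the sources used here. The deposited values are FPKM as scaled by the authors, identified from the values: times the GENCODE 29 merged exon length, 100% of them were whole multiples of a single step in their library (tolerance 0.001), which gave recovered reads and the authors' totals (16648943 to 20480491). Limma-trend (limma 3.58.1, R 4.3.3) was fitted to log2(FPKM + 1) of the 13172 genes averaging 1 FPKM or more, and limma-voom to recovered reads of the same genes with the authors' totals as library sizes; both were tested on simulated data. The members and lists were chosen with earlier results of these data known. Named genes are the members, the called genes of each list (at most 4, or else the 2 most abundant), the 3 genes most like TFRC and the 2 most abundant ferritin pseudogenes.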

Additional observations from a re-analysis of the deposited data

How the results depend on the processing

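Limma-trend called 27 genes in all and 0 of the iron lists. The number over all genes was 1019 by limma-voom, 45 under quantile normalization, 76 with the sum of reads, 0 without a filter on low values (3938 genes at an unadjusted p under 0.05), 181 when genes averaged 5 FPKM or more, and 338 with length and GC content corrected for. It ran from 0 to 406 with one library left out (0 without knockdown library 1 or without knockdown library 2, with 2205 and 4841 genes at an unadjusted p under 0.05; 228 without control 1 and 406 without control 2). By limma-voom it was 102 without knockdown library 1, 3877 without knockdown library 2, 136 without control 1 and 496 without control 2. By limma-voom it was 461 with the sum of reads. Of the iron lists 14 genes were called by limma-voom, 2 when genes averaged 5 FPKM or more, 4 with length and GC content corrected for, and 0 to 2 with one library left out, the 2 without control 2. By limma-voom that count was 2, 5, 2 and 38 without control 1, control 2, knockdown library 1 and knockdown library 2, and 5 with the sum of reads. The log2 fold change of TFRC was -0.49 under quantile normalization, -0.51 with the sum of reads (-0.54 by limma-voom), -0.54 with a pseudocount of 5 and -0.75 after the correction. With one library left out it was -0.73 to -0.56, and by limma-voom -0.76 to -0.59. The labels number the libraries 1 and 2 in each group without tying the numbers to a shared culture or day. With the number as a replicate block, limma-trend called 781 genes, 7 of the iron lists and TFRC. Nothing is read from the call of TFRC, which was chosen with the contrast known and was also called with the numbers crossed between groups. Its fold change of -0.65 cannot change with a block in this balanced design. With the same block, limma-voom called 1072 genes and 14 of the iron lists. Of the 14 genes named from limma-voom, 11 were among the latter, and PRDX1, FECH and ZFP36L2 were not (adjusted p 0.0780 to 0.0963). The deviations of same-numbered libraries had a correlation of -0.21 over genes, and with the numbers crossed the calls were 1910 and 17. Fits by limma-voom with a library left out, with a block or with the sum of reads, and the crossed block, were chosen after seeing the data. A fit that leaves 1 library in a group assumes that it varies like the other group. Depth limited STEAP3, which had at most 4 reads.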
